A study of Mus musculus with 12 samples.

Results

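The genes described here are 45 genes that copy DNA and feed that copying: the origin licensing, helicase, clamp, polymerase, strand maturation, nucleotide supply and replication-coupled chromatin genes of S phase. They were taken by symbol from the deposited expression table, in which all 45 were found among 23420 genes. RNA was measured in 12 libraries of mouse fetal liver cells, 3 for every combination of PIR sign and genotype, here PIR+ wt, PIR- wt, PIR+ KO and PIR- KO. By the source name the embryos were E12.5 for PIR+ wt 1 and 2, PIR- wt 2 and 3, PIR+ KO 3 and PIR- KO 1, and E14.5 for the other 6 libraries. Each wt group thus holds 2 E12.5 libraries and 1 E14.5 library and each KO group 1 and 2, so KO against wt is partly confounded with labelled stage. By their titles, PIR+ and PIR- are balanced for stage. The labelled stage goes with the markers field, however, which contradicts the PIR sign of the title in 6 libraries. If that field held the true sign, PIR sign and stage could not be told apart. PIR is the paired immunoglobulin-like receptor, by which cells were sorted, and the genotype is wild type (wt) or knock-out (KO), with neither the removed gene nor the strain named in the labels. All groups were sorted as lineage-negative, c-Kit+ fetal liver cells, and each tube held 100 cells. With so few cells per tube, a group mean rests on 3 small pools, and nothing in the labels says whether those pools were separate embryos, so p-values measure the spread between these libraries, which may be technical. In such pools, fewer cells of a type and less RNA per cell cannot be told apart.

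A cell copies its genome once per division. Origins are first licensed by ORC, CDC6 and CDT1, which load the MCM2 to MCM7 helicase. The helicase is switched on with CDC45 and GINS, polymerases extend primed strands behind the PCNA clamp that RFC loads, FEN1 and LIG1 seal the lagging strand, and ribonucleotide reductase with thymidylate synthase and dUTPase keeps the DNA building blocks supplied. In fetal liver, progenitors divide quickly, and transcripts of these genes are commonly read as a measure of how many cells are in or entering S phase.

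The libraries themselves differed in ways that touch every result. Deposited sums ran from 203135 to 284648 in PIR+ and from 155374 to 222700 in PIR- libraries, with 9881 to 11200 genes above 0 per library. From the step between low values, each library was estimated to hold 208195 to 442533 molecules. The values were therefore tested as deposited and again after dividing each library by its median-of-ratios size factor (0.753 to 1.46), which brings the median gene of all libraries to a common level and is called scaling from here on. Pira2, a gene of the sorted receptor, was 9.3 to 35.7 in PIR+ libraries and listed at 0 in all 6 PIR- libraries, and Kit (18.6 to 56.3) and Il7r (9.7 to 24.4) were present in every library, whereas the series title describes the PIR- subset as lacking IL7R. The markers field of the labels contradicts the PIR sign of the title in 6 libraries, and the series title gives only the earlier of the stages in the source names. The titles were followed. The globin gene Hba-a1 exceeded 300 in 5 libraries, PIR+ wt 3, PIR- wt 2 and 3, PIR+ KO 1 and PIR- KO 1, hereafter the globin-rich libraries. Counts are therefore given also without these 5, and within each stage.

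Short stretches of promoter are shown first, because many S-phase genes are known to be driven by the E2F family of transcription factors, whose recognition word can be read directly. RefSeq windows of 250 bases before and 50 bases after the start (build GRCm38.p6) were matched for 38 of the 45 genes. Mcm4, Gins1, Gins2, Gins4, Rfc2, Prim2 and Pole had no entry. Both strands were searched for TTTCCCGC, TTTCGCGC, TTTGCCGC and TTTGGCGC, which may overlap each other. Some genes have more than 1 window, and a word in any of them was counted. Of the 38 genes, 14 (36.8%) held at least 1 word, against 704 of all 27025 genes with a window (2.6%). CCAAT was found in 25 of 38 genes (65.8%) against 41.1% of all genes with a window. TTTGAA, the cell cycle homology region core of many mitotic genes, was found in 5 of 38 (13.2%) against 20.2%. A match is a description of letters in this window and not of binding. The stretches below run 5′ to 3′ along the gene, with the E2F word (on either strand) in capitals. Those of Cdc6, chr11:98908002-98908031 (+ strand), Cdt1, chr8:122568035-122568064 (+ strand), Mcm3, chr1:20820275-20820304 (- strand), Mcm5, chr8:75109330-75109389 (+ strand), Mcm6, chr1:128359782-128359841 (- strand), and Dtl, chr1:191575519-191575578 (- strand), belong to genes that were higher in PIR+ libraries on the deposited scale. Those of Pold1, chr7:44548766-44548795 (- strand), and Lig1, chr7:13278841-13278870 (+ strand), belong to genes that were lower in PIR+ libraries after scaling. In the stretches of Mcm5 and Mcm6 a pair of words overlaps. The 30-base stretches of Cdt1, Mcm3, Pold1 and Lig1 start after the annotated first base, and those of the other genes start before it. The Cdc6 stretch lies inside the gene as GENCODE M21 draws it, since that annotation starts farther upstream.
Cdc6: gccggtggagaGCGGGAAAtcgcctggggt
Cdt1: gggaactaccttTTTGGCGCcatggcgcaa
Mcm3: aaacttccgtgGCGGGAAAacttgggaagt
Mcm5: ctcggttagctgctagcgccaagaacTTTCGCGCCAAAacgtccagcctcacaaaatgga
Mcm6: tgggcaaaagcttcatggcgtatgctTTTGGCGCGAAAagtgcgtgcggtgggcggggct
Dtl: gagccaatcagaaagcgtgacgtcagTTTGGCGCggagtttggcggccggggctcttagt
Pold1: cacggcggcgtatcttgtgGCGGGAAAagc
Lig1: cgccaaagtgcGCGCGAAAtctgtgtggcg

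Rrm2, the regulated subunit of ribonucleotide reductase and, with Prim2, a gene that was lower in PIR+ libraries on both scales, had no E2F word of these spellings in its window. Its sequence before the start, chr12:24708004-24708240 (+ strand, GRCm38.p6), is shown with its CCAAT word in capitals, for comparison with the genes above.
Rrm2: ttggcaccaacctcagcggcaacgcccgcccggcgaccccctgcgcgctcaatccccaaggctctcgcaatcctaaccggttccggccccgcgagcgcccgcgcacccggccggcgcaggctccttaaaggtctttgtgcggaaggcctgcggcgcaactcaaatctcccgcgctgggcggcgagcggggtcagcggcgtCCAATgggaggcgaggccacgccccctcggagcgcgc

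By role, an E2F word was found in 3 of 5 licensing genes with a window, 5 of 8 helicase genes, 3 of 6 polymerase genes and 0 of 5 nucleotide supply genes. By outcome, it was found in 6 of 14 genes called higher in PIR+ on the deposited scale (42.9%), 2 of 10 called lower after scaling (20%) and 3 of 11 called in neither (27.3%). The plot of word positions shows that the words lay on both sides of the start.

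**Figure D1:**
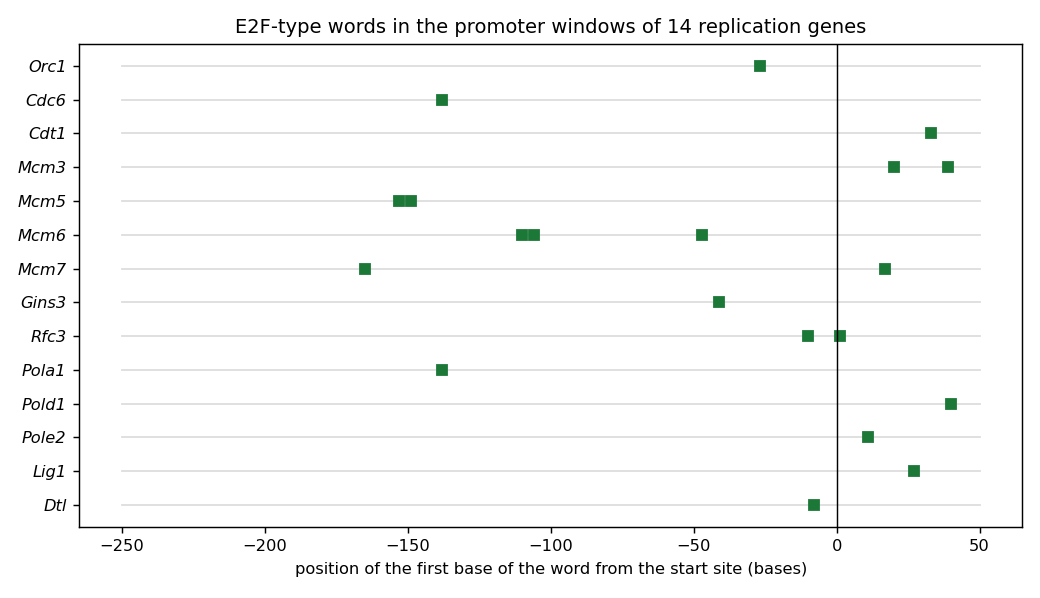
Position of each E2F-type word (green squares, first base of the word, in bases from the RefSeq start site) in the promoter windows of the 14 genes that hold at least 1. Grey lines span the 300-base window, and Mcm6 holds the most words, 3.

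PIR+ and PIR- libraries were compared first, averaged over the genotypes, and a gene is called where the adjusted p is under 0.05. As deposited, 17 of the 42 tested replication genes were higher in PIR+ and 2 were lower. The 17 were Orc2, Cdc6, Cdt1, Mcm2, Mcm3, Mcm4, Mcm5, Mcm6, Mcm10, Gins2, Rfc2, Rfc4, Rfc5, Fen1, Rpa1, Chaf1b and Dtl, which came from the licensing, helicase, loader, maturation and chromatin genes. The 2 that were lower were Prim2 and Rrm2. Of all 4542 tested genes, 55% were higher and 4.58% lower in this comparison, so 17 of 42 is not above the background. The median log2 fold change was 0.28 over the replication genes and 0.45 over all genes, and 29 of the 42 lay below the median gene. After scaling, 0 replication genes were higher and 11 were lower (15.4% and 14.2% of all genes), with a median of -0.17 against 0.01. The 11 were Pcna, Pola2, Prim2, Pold1, Lig1, Rrm1, Rrm2, Tyms, Dut, Tk1 and Slbp. An unadjusted p under 0.05 was reached by 19 higher and 3 lower genes as deposited, and by 3 higher and 15 lower genes after scaling. For unadjusted p, here and below, the share of all genes was not counted. These counts therefore have no background and are not read as results about the group. Orc1 (2 to 8.5), Gins3 (3.1 to 7) and Pole2 (4.7 to 11.4), which belong to the origin recognition complex, the helicase and polymerase epsilon, reached 10 in fewer than 3 libraries and were not tested.

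Genes whose 6 PIR+ libraries all lay on one side of the 6 PIR- libraries were counted as well. As deposited, the 6 genes Cdt1, Mcm4, Mcm5, Mcm6, Rfc2 and Chaf1b were higher without overlap and 0 were lower, against 17.7% and 2.4% of all genes. After scaling, 0 were higher and the 6 genes Pcna, Prim2, Pold1, Lig1, Rrm2 and Dut were lower without overlap, against 7.31% and 7.18% of all genes. No gene was called in opposite directions on the 2 scales.

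**Figure D2:**
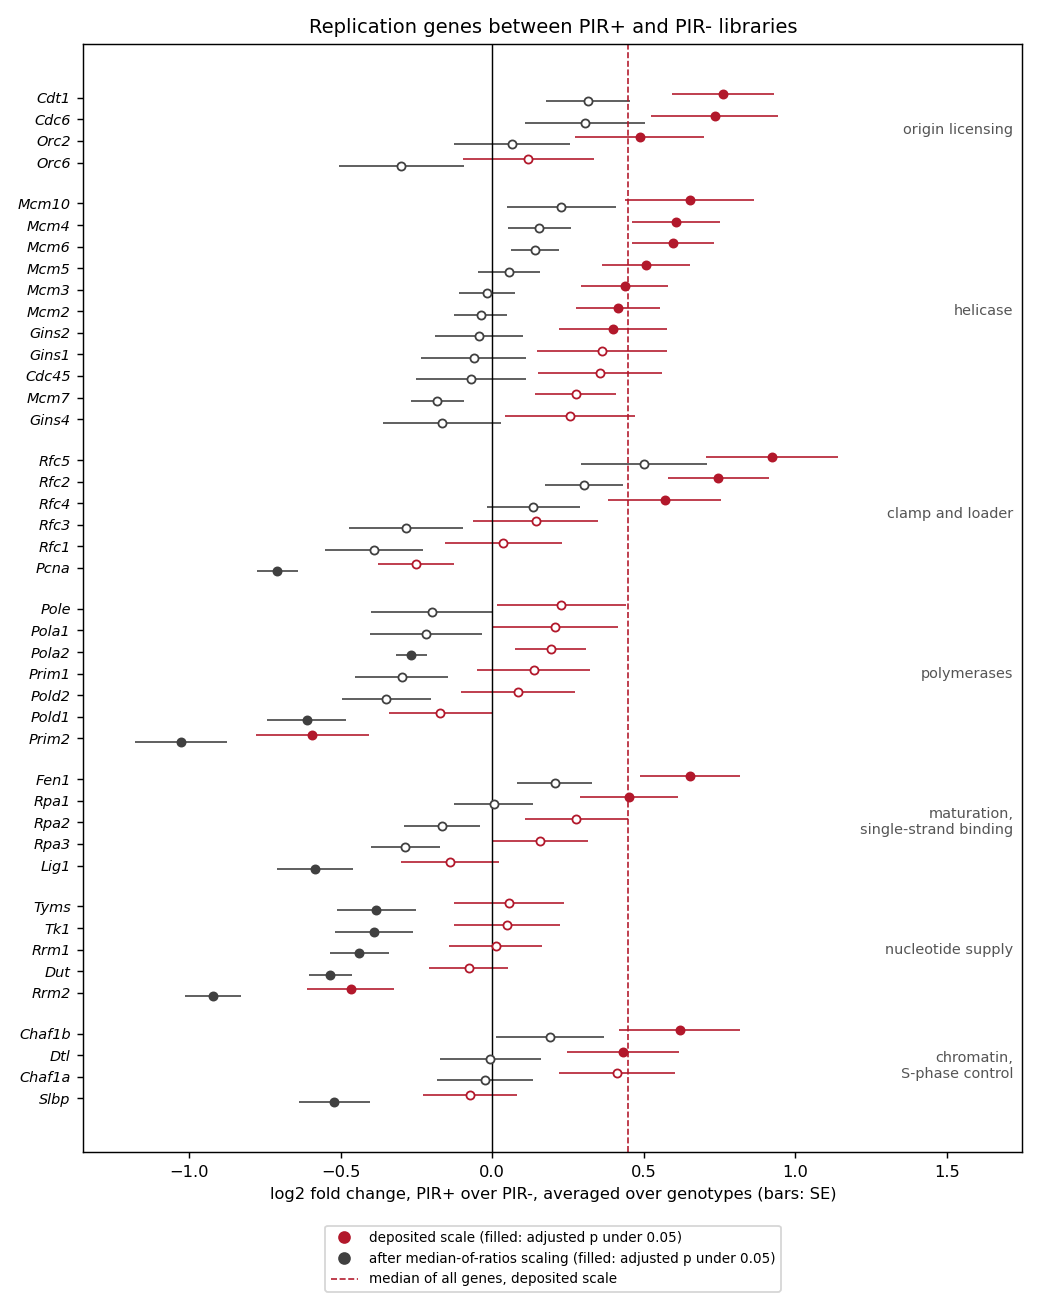
Log2 fold change of PIR+ over PIR-, averaged over genotypes, for the 42 tested genes by role, as deposited (red) and after median-of-ratios scaling (grey), with bars of 1 SE. Filled points passed an adjusted p of 0.05, and the dashed line is the median of all genes as deposited, 0.45: Rfc5 lies farthest right, and all 5 nucleotide supply genes lie left of the line.

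Of the summed markers of other cells, only those of macrophages did not overlap between PIR+ and PIR- libraries. Summed erythroid markers (18 of 20 in the table, none at 0 everywhere) were 71.2 to 1889 in PIR+ (median 101) and 76.5 to 1660 in PIR- libraries (median 820). Of the 6 tested, 1 was called higher and 5 lower in PIR+ as deposited (55% and 4.58% of all genes). After scaling, 1 was higher and 2 were lower (15.4% and 14.2% of all genes). Summed macrophage markers were 22.4 to 53.3 against 1.1 to 8.1, and megakaryocyte markers 3.1 to 15.3 against 0 to 5.6. Hepatoblast markers were 7 to 26 against 13.8 to 64.1, endothelial 5.3 to 16.3 against 5.3 to 35.7, and mast cell markers 1.4 to 11.4 against 0 to 8.1, with Mcpt8, Gzmb and Cma1 at 0 everywhere. Markers of lymphoid progenitors, the labelled cells, summed to 185 to 255 in PIR+ and 591 to 867 in PIR- libraries, with Dntt at 0 everywhere. These markers did not move together: of the 10 tested, 3 were called higher and 7 lower in PIR+ on both scales. Kit, one of this list, was 34.2 to 56.3 in PIR+ and 18.6 to 34.5 in PIR- libraries. The part of these cells in the results was not tested. Without the 5 globin-rich libraries, which differ in erythroid markers, PIR- wt keeps a single library. As deposited, the median log2 fold change over both genotypes was then 0.15 over the replication genes and 0.41 over all genes.

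Of the origin licensing genes, 3 of the 4 tested were called higher in PIR+ libraries as deposited (55% of all genes were), with a median log2 fold change of 0.61, and 0 were called after scaling. Cdt1 (chromosome 8, 122568015 to 122573554, GRCm38), which escorts the helicase onto origins, was 34.9, 28.9 and 35.3 in PIR+ wt and 20.1, 17.8 and 14.7 in PIR- wt libraries. In KO libraries it was 30.9, 30.8 and 57.8 in PIR+ and 23.8, 24.2 and 24.2 in PIR-. Every PIR+ library was above every PIR- library, and PIR+ KO 3 was the highest of all. The log2 fold change was 0.76 ± 0.17 (SE, adjusted p = 9.64e-05, limma), and after scaling 0.32 with an adjusted p of 0.0868. Gm20388 overlaps Cdt1 on the same strand, so reads of the pair may be split. Cdc6, its partner in loading, gave 0.73 ± 0.21 (means 18.5 and 10, adjusted p = 0.00218), although PIR+ wt 2 was as low as 7.2 and below all PIR- libraries. Orc2, a subunit of the origin recognition complex, gave 0.49 ± 0.21 (adjusted p = 0.0423), a call that was lost when any 1 of 8 libraries was left out. Orc6 was not called (0.12 ± 0.22, adjusted p = 0.633). The median after scaling was 0.19.

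Helicase genes held the most calls, 7 of 11 higher as deposited (55% of all genes were), with a median of 0.42, close to that of all genes. Mcm10 (chromosome 2, 4989714 to 5012791), which helps activate the loaded helicase, ran from 14 to 16.3 in the 3 PIR+ wt libraries and was 9.5, 5.4 and 10.9 in PIR- wt libraries. In KO libraries Mcm10 was 13.3, 12.2 and 25.9 in PIR+ and 9.5, 9.8 and 14 in PIR-. The wt groups did not overlap, whereas the KO groups did. Its log2 fold change was 0.65 ± 0.21 (adjusted p = 0.00685), and without PIR+ KO 3 it was 0.49 with an adjusted p of 0.0545. Mcm6 (chromosome 1, 128331590 to 128359664), a subunit of the ring itself, is given because its adjusted p was the smallest of the MCM genes, a choice made after its values were seen. Mcm6 was 96.5, 95.4 and 134.9 in PIR+ and 65.2, 62 and 66 in PIR- wt, and 107.2, 98.9 and 146 against 74.7, 87.6 and 89.6 in KO libraries. No PIR- library reached the lowest PIR+ library. The log2 fold change of Mcm6 was 0.60 ± 0.13 (adjusted p = 0.00012) as deposited and 0.14 (adjusted p = 0.188) after scaling. The other ring subunits gave 0.61 ± 0.15 for Mcm4, 0.51 ± 0.14 for Mcm5, 0.44 ± 0.14 for Mcm3 and 0.42 ± 0.14 for Mcm2, all called, and 0.27 ± 0.13 for Mcm7, which missed the threshold (adjusted p = 0.0645). Of the CDC45 and GINS partners that complete the active helicase, Gins2 was called (0.40 ± 0.18, adjusted p = 0.0463), while Cdc45 (0.36), Gins1 (0.36) and Gins4 (0.26) were not. Leaving out any 1 of 8 libraries ended the call of Gins2. After scaling, the helicase median was -0.04, none was called, and Mcm2, Mcm3 and Gins2 turned to -0.038, -0.016 and -0.044.

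The clamp and its loader were split. Rfc5 (chromosome 5, 117378103 to 117389047), a small loader subunit, was 13.3, 16.4 and 22.4 in PIR+ and 9, 10.1 and 11.6 in PIR- wt, and 18.2, 18.1 and 24.3 against 3.2, 11 and 15.4 in KO libraries. Within each genotype PIR+ was above PIR-, and PIR- KO 1 was far the lowest library. Its log2 fold change, 0.92 ± 0.22 (adjusted p = 0.000231), was the largest of the 42 genes as deposited, but 0.63 without PIR- KO 1, and 0.50 (adjusted p = 0.0706) after scaling. Wsb2 overlaps Rfc5 on the other strand. Rfc2 (0.75 ± 0.17, adjusted p = 0.000103) and Rfc4 (0.57 ± 0.19, adjusted p = 0.00745), further loader subunits, were higher too, whereas the large subunit Rfc1 (0.04) and Rfc3 (0.14) were not called. Pcna (chromosome 2, 132249162 to 132253314), the sliding clamp, went the other way, and its values are given for that reason, after they were seen. Pcna was 149.1, 128.2 and 159.3 in PIR+ and 159.6, 162.7 and 164.5 in PIR- wt, and 166, 130.3 and 192.4 against 176.9, 201.8 and 238.8 in KO libraries. Wild-type groups were separated by a narrow margin, and KO groups overlapped. As deposited Pcna was not called (-0.25 ± 0.12, adjusted p = 0.0724), and after scaling it was lower, at -0.71 ± 0.07 (adjusted p = 2.1e-09), with 112 to 142 in PIR+ and 182 to 220.0 in PIR- libraries. Pcna has the pseudogene copies Pcna-ps1 and Pcna-ps2, so its reads are uncertain.

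Among the polymerase genes 0 of 7 were higher and 1 was lower as deposited (55% and 4.58% of all genes), and the median was 0.14. Prim2 (chromosome 1, 33453810 to 33669795), the large primase subunit that starts each new strand, was 14, 15.8 and 13.6 in PIR+ and 18.6, 20.9 and 25.6 in PIR- wt libraries. In KO libraries Prim2 was 17, 10.8 and 19.8 in PIR+ and 25.4, 17.3 and 33.8 in PIR-. Wild-type groups did not overlap, and in KO only PIR- KO 2 fell within the PIR+ range. Prim2 was lower by -0.59 ± 0.19 (adjusted p = 0.00516) as deposited and by -1.03 ± 0.15 (adjusted p = 4.55e-06) after scaling. The deposited call of Prim2 was lost within each stage and without the globin-rich libraries (-0.50, adjusted p = 0.132), and the scaled call was kept in each of these. Gm37618 overlaps Prim2 on the same strand and Gm29228 and Gm17813 on the other. Prim1, the catalytic primase subunit, was not called on either scale (0.14 as deposited). Pola2, the regulatory subunit of polymerase alpha, was 386.9 to 641.9 across libraries. Its fold change was 0.19 ± 0.12 as deposited and -0.27 ± 0.05 (adjusted p = 0.000138) after scaling. Pold1, the catalytic subunit of polymerase delta, was -0.17 as deposited and lower by -0.61 ± 0.13 (adjusted p = 0.000552) after scaling, while Pola1 (0.21), Pold2 (0.09) and Pole (0.23) were not called.

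Of the maturation and single-strand binding genes, 2 of 5 were higher as deposited (55% of all genes were), with a median of 0.28. Fen1 (chromosome 19, 10199132 to 10204169), the flap endonuclease that trims lagging-strand fragments, was 42.5, 32.2 and 42 in PIR+ and 22.8, 20.9 and 32.6 in PIR- wt libraries. In KO libraries Fen1 was 37.6, 37.7 and 60.8 in PIR+ and 19.1, 28.3 and 36 in PIR-. The only overlap was of PIR- wt 3 and PIR- KO 3 with PIR+ wt 2, and PIR+ KO 3 was the highest. The fold change was 0.65 ± 0.17 (adjusted p = 0.000611), and 0.21 (adjusted p = 0.23) after scaling. Tmem258 and Gm10143 overlap Fen1 on the other strand. Rpa1, the large subunit of the single-strand binding protein, was higher (0.45 ± 0.16, adjusted p = 0.0138), a call that ended when any 1 of 3 libraries was left out, and Rpa2 (0.28) and Rpa3 (0.16) were not called. Lig1, which joins the fragments after Fen1 has trimmed them, was -0.14 as deposited (adjusted p = 0.451) and lower by -0.59 ± 0.13 (adjusted p = 0.000628) after scaling.

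Nucleotide supply genes stood at the low end of the group, with 0 of 5 higher, 1 lower and a median of 0.01 as deposited. Over all genes, 55% were higher and 4.58% lower. Rrm2 (chromosome 12, 24708241 to 24714146) was 54.6, 50 and 63 in PIR+ and 77.4, 92.9 and 88.5 in PIR- wt libraries. In KO libraries Rrm2 was 61.2, 47.5 and 95.8 in PIR+ and 69.4, 81.9 and 95.5 in PIR-. Wild-type groups did not overlap, but PIR+ KO 3 was above every PIR- library. The fold change of Rrm2 was -0.47 ± 0.14 (adjusted p = 0.0039) as deposited and -0.92 ± 0.09 (adjusted p = 6.91e-09) after scaling, where PIR+ libraries were 43.2 to 65.8 and PIR- libraries 84.2 to 120 (119.6 at the highest). As deposited, Rrm2 was not called within E12.5 (-0.16, adjusted p = 0.414) or without the globin-rich libraries (-0.47, adjusted p = 0.0728). After scaling it was called in each of these. Rrm1, the large reductase subunit, was 0.01 as deposited and -0.44 ± 0.10 (adjusted p = 0.00082) after scaling. Dut, the dUTPase that keeps uracil out of DNA, averaged 108 in PIR+ and 114 in PIR- libraries (-0.08, adjusted p = 0.606) and was lower after scaling (-0.53 ± 0.07, adjusted p = 1.03e-06). Tyms, thymidylate synthase, and Tk1, thymidine kinase, were 0.05 each as deposited, and lower after scaling by -0.38 ± 0.13 (adjusted p = 0.0276) and -0.39 ± 0.13 (adjusted p = 0.021). All 5 of these genes were thus lower after scaling, where 14.2% of all genes were. The call of Tyms, however, was lost when any 1 of 5 libraries was left out and that of Tk1 when any 1 of 4 was. Tyms has the pseudogene copy Tyms-ps.

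Of the chromatin and S-phase control genes, 2 of 4 were higher as deposited (55% of all genes were), with a median of 0.42. Chaf1b (chromosome 16, 93883901 to 93906115), a subunit of the assembly factor that places histones on new DNA, was 17.0 ± 2.60 (SD, n = 3) in PIR+ wt, at 19.7 and 16.9 in replicates 1 and 3, and 10.1, 11.6 and 7 in PIR- wt libraries. In KO libraries Chaf1b was 17.6, 15.2 and 17.5 in PIR+ and 10.1, 14.4 and 11.8 in PIR-. The highest PIR- library, at 14.4, lay just under the lowest PIR+ library, PIR+ wt 2. The fold change was 0.62 ± 0.20 (adjusted p = 0.00651), and 0.19 (adjusted p = 0.465) after scaling. Gm49617 overlaps Chaf1b on the same strand. Its partner Chaf1a (0.41 ± 0.19, adjusted p = 0.0544) missed the threshold. Dtl, an adaptor of the ligase that destroys CDT1 in S phase, was called (0.43 ± 0.19, adjusted p = 0.0391) but was lost when any 1 of 7 libraries was left out, and was -0.0066 after scaling. Slbp, which binds histone messages, was -0.07 as deposited and lower by -0.52 ± 0.12 (adjusted p = 0.000981) after scaling.

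**Figure D3:**
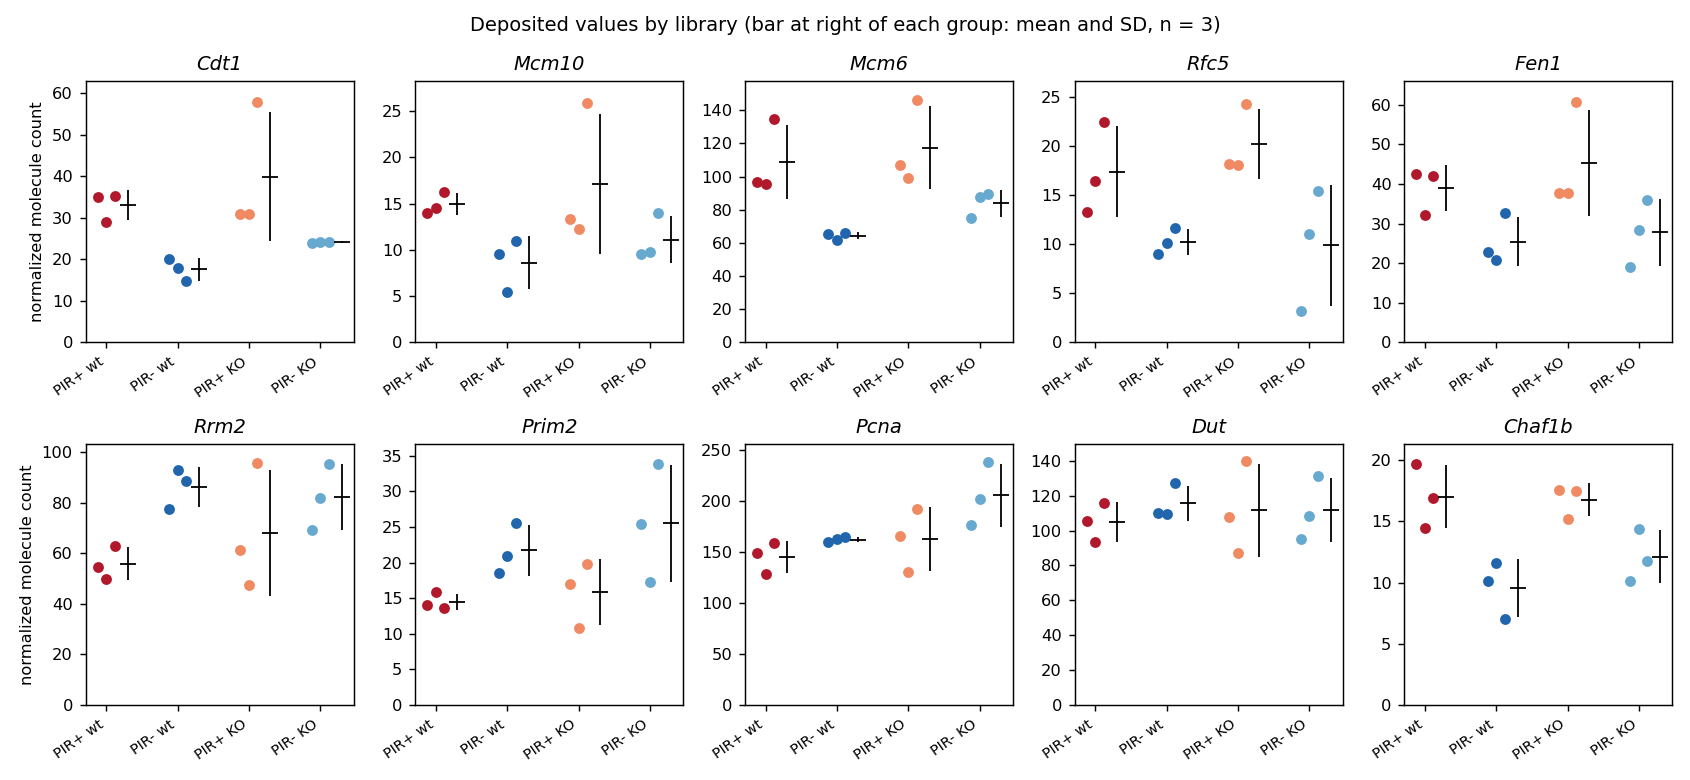
Deposited normalized molecule counts of 10 genes in each of the 12 libraries by group, with the mean and SD (n = 3) at the right of each group and each axis starting at 0. Cdt1, Mcm6 and Chaf1b show no PIR- library as high as the lowest PIR+ library, while Rrm2 and Prim2 lie lower in PIR+ wt than in PIR- wt.

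Because the scale decides which genes are called, quantities that scaling cannot move were also described, as ratios of genes within a library. These were chosen after the values were seen and carry no test. The summed Mcm2 to Mcm7 over summed Rrm1 and Rrm2 was 3.99 to 5.40 in PIR+ (median 4.98) and 2.45 to 3.61 in PIR- libraries (median 2.73). By group the ratio was 5.22 ± 0.182 in PIR+ wt, 2.57 ± 0.135 in PIR- wt, 4.52 ± 0.481 in PIR+ KO and 3.25 ± 0.460 in PIR- KO (SD, n = 3). So the helicase messages outweighed the reductase messages by more in each PIR+ library than in any PIR- library. Mcm6 over Rrm2 was 1.52 to 2.14 against 0.667 to 1.08, Mcm6 over Pcna 0.646 to 0.847 against 0.375 to 0.434, and Cdt1 over Prim2 1.82 to 2.92 against 0.574 to 1.40, again without overlap. Of the sum over 44 replication genes, leaving out Pola2 for its high values, helicase genes took 36.3% to 40.0% in PIR+ and 30.1% to 34.0% in PIR- libraries. Nucleotide supply genes took 15.4% to 17.1% and 18.2% to 23.1%. The clamp and loader took 15.2% to 17.5% and 17.7% to 19.9%, and Pcna was the larger part of that sum in every library. The other roles overlapped. Licensing genes took 4.15% to 6.02% and 3.78% to 5.02%, and polymerases 5.99% to 7.79% and 7.39% to 9.17%. Maturation and binding genes took 9.99% to 11.9% and 9.55% to 11.7%, and chromatin and S-phase control genes 5.69% to 7.12% and 5.20% to 7.11%. All 45 genes together made up 84.4 to 94.5 of every 10000 units of a PIR+ library and 94.7 to 113 of a PIR- library. Without Pola2 these ranges were 63.0 to 71.9 and 71.6 to 82.6, which overlap.

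**Figure D4:**
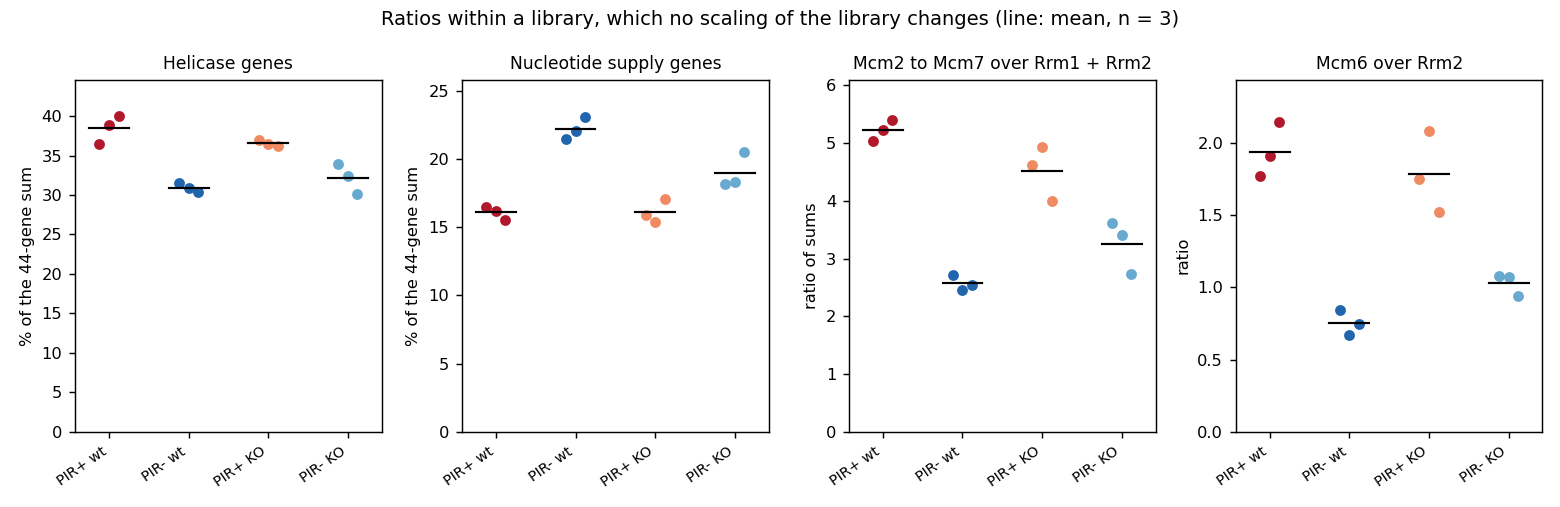
Ratios within each of the 12 libraries by group (points, with a line at the mean of n = 3), for helicase and nucleotide supply genes as a percentage of the 44-gene sum, Mcm2 to Mcm7 over Rrm1 plus Rrm2, and Mcm6 over Rrm2, each axis starting at 0. PIR+ and PIR- libraries do not overlap in any panel. By the mean, PIR- KO lies nearer to PIR+ than PIR- wt does, which was not tested. PIR- KO 3, at 30.1%, has the lowest helicase percentage of all libraries.

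In wt alone, 12 of 42 genes were higher in PIR+ and 1 was lower as deposited, against 40.6% and 3.72% of all genes. The 12 were Cdt1, Mcm2, Mcm3, Mcm4, Mcm5, Mcm6, Mcm10, Rfc2, Rfc4, Fen1, Chaf1b and Dtl, led by Cdt1 at 0.88 ± 0.24 (adjusted p = 0.00203), and the lower gene was Rrm2 at -0.62 ± 0.20 (adjusted p = 0.00959). The median was 0.32 against 0.51 over all genes. After scaling, 0 were higher and 11 lower, against 11.5% and 11% of all genes (0 and 12 by an unadjusted p under 0.05), with a median of -0.17 against 0.02. The 11 were Pcna, Pola2, Prim2, Pold1, Pold2, Lig1, Rrm1, Rrm2, Tyms, Dut and Slbp, led by Rrm2 at -1.13 ± 0.13 (adjusted p = 1.49e-07), whose scaled mean was 48.2 in PIR+ and 107 in PIR- wt. The scaled call of Pold2 was lost when any 1 of 5 libraries was left out (adjusted p up to 0.107), and that of Slbp when any 1 of 3 was. The deposited count fell from 12 to 2 without PIR+ wt 3 and to 5 without PIR- wt 2, and the call of Rrm2 was lost without PIR+ wt 2. In the authors' deposited table, the p-value for PIR+ against PIR- in wt was under 0.05 for 10 of the 45 genes. In the authors' deposited table the smallest of these were 1.78e-08 for Rrm2, 4.75e-07 for Pola2 and 1.69e-06 for Pcna. The 10 genes named by the authors' deposited table were 10 of the 11 called lower after scaling, and 0 of the 12 called higher as deposited. Both sets of p-values come from the same libraries, so this overlap is not independent support. The share of all genes under 0.05 in the authors' column was not counted.

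In KO alone, 7 of 42 genes were higher in PIR+ and 0 were lower as deposited, against 22.5% and 2.97% of all genes (10 and 1 by an unadjusted p under 0.05). These were Cdc6, Cdt1, Mcm4, Mcm5, Rfc2, Rfc5 and Fen1. The largest were Rfc5 at 1.16 ± 0.31 (adjusted p = 0.00252), Cdc6 at 0.98 ± 0.30 (adjusted p = 0.00923) and Rfc2 at 0.84 ± 0.23 (adjusted p = 0.00414). The count of 7 dropped to 2 without PIR+ KO 3 and to 3 without PIR- KO 1, and Rfc5, for which PIR- KO 1 was lowest, was 0.58 with an adjusted p of 0.201 without that library. After scaling, 0 were higher and 6 were lower, Pcna, Prim2, Rrm2, Dut, Tk1 and Slbp, against 8.12% and 7.51% of all genes (3 and 9 by an unadjusted p under 0.05). Pcna led these at -0.74 (adjusted p = 1.09e-06), with a scaled mean of 130 in PIR+ KO and 218 in PIR- KO. Rrm2 was -0.32 ± 0.20 as deposited (adjusted p = 0.229) and lower by -0.71 (adjusted p = 0.000222) after scaling. Across both genotypes, Cdt1, Mcm4, Mcm5, Rfc2 and Fen1 were higher as deposited, and Pcna, Prim2, Rrm2, Dut and Slbp were lower after scaling, 5 of 42 genes in each case. The share of all genes called in both genotypes was not counted, so 5 of 42 is not read as a trait of these genes. Many of the deposited calls did not survive leaving out 1 library: in wt and in KO, the number of libraries whose removal ended the call was 6 and 5 for Mcm5, 4 and 2 for Fen1, 3 and 1 for Mcm4, 0 and 3 for Cdt1, and 3 and 0 for Rfc2. Cdt1 in KO was 0.35 (adjusted p = 0.382) without PIR+ KO 3. In KO, the scaled call of Slbp was lost when any 1 of 6 libraries was left out, and that of Tk1 when any 1 of 4 was.

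KO and wt were compared within each sorted subset. With labelled stage as a further term in the deposited fit, 0 of the 42 genes were called in either subset, as without it. In PIR+ cells, 0 of 42 genes were called higher and 0 lower as deposited, where 0.44% and 0.462% of all genes were. By an unadjusted p under 0.05 the count was 2, both higher. Pola1, the catalytic subunit of polymerase alpha, was 15.1, 18.1 and 17.5 in PIR+ KO and 10.2, 10.5 and 10.8 in PIR+ wt, values given after they were seen. These groups did not overlap, but the fold change, 0.63 (95% interval 0.05 to 1.22), had an adjusted p of 0.642, the smallest of the group. Cdc6 gave 0.59 (adjusted p = 0.71). After scaling, 0 and 0 were called (0.374% and 0.638% of all genes), with 1 gene, Tk1, at an unadjusted p under 0.05 and a smallest adjusted p of 0.433. The median was 0.13 against 0.09 over all genes as deposited, and 0.03 after scaling. In the authors' deposited table, the p-value of KO against wt in PIR+ cells was under 0.05 for 0 of the 45 genes.

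In PIR- cells, 0 genes were called higher and 0 lower as deposited, where 1.08% and 0.22% of all genes were, and 0 had an unadjusted p under 0.05. The smallest adjusted p was 0.362, of Mcm6, at 0.37 (95% interval -0.00 to 0.75). The median was 0.11 against 0.20 over all genes. After scaling, 0 were higher and 1 was lower, against 1.03% and 0.661% of all genes. That gene was Pola2, lower by -0.40 ± 0.07 in KO (adjusted p = 0.00159), with a scaled mean of 475 in KO and 629 in wt. It was still called when each of the 12 libraries was left out in turn. It missed the threshold at a similar size among the 6 libraries whose markers field has the sign of the title (-0.38, adjusted p = 0.0828), within E12.5 (-0.42, adjusted p = 0.278) and within E14.5 (-0.37, adjusted p = 0.184), where an arm held a single library. The normalized molecule count of Pola2, which is not divided by length, exceeded the sum of the other 7 polymerase genes (85.7 to 147.6) in every library, for a reason that the files do not settle, so this call is uncertain. A further 6 genes, Rfc2, Rfc3, Rrm1, Rrm2, Tyms and Dut, had an unadjusted p under 0.05 on the same side.

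The difference of the KO effect between PIR+ and PIR- was tested directly. As deposited, 0 genes were called in either direction (0.11% and 0.462% of all genes), 0 had an unadjusted p under 0.05, and the smallest adjusted p was 0.923. After scaling, 0 were called (0.286% and 0.462% of all genes). By an unadjusted p under 0.05 the count was 5, all with a KO effect that was more positive in PIR+ cells: Pola2 (0.35, adjusted p = 0.141), Rrm1 (0.59, adjusted p = 0.264), Lig1 (0.58), Tyms (0.57) and Rrm2 (0.42). The plot of genotype effects gives all 42 genes with their errors. The comparisons of KO with wt and of PIR+ with PIR- share libraries, so their values are given side by side and not correlated.

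**Figure D5:**
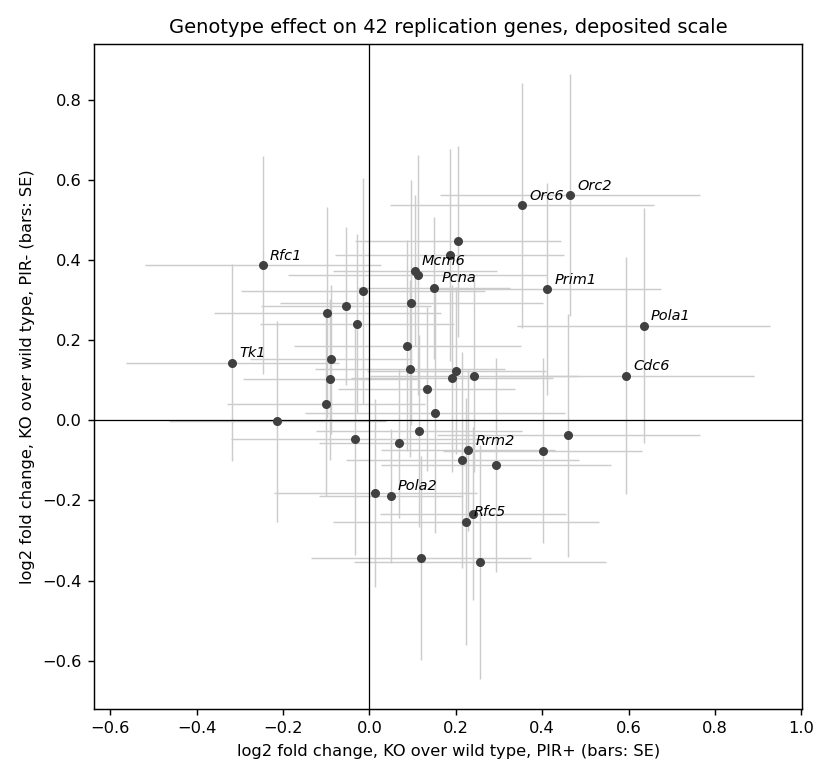
Log2 fold change of KO over wt in PIR+ (horizontal) and in PIR- cells (vertical) for the 42 tested genes as deposited, with bars of 1 SE and some genes labelled. None was called in either subset, and Pola1 lies farthest right, at 0.63.

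Genes next to these in the pathway were taken from 4 lists. In PIR+ against PIR-, averaged over genotypes, 55% of all genes were higher and 4.58% lower as deposited. After scaling the shares were 15.4% and 14.2%. Of 25 tested further replication genes, 12 were higher and 3 lower in PIR+ as deposited, with a median of 0.43 against 0.45 over all genes, and 0 and 4 after scaling. Timeless, of the fork protection complex, was 0.75 (adjusted p = 0.00175), Atad5, which unloads the clamp, 0.70, Topbp1, which activates the helicase and the checkpoint, 0.67 and Chtf8, of an alternative loader, 0.64. The 3 lower genes were Pold4, a small polymerase delta subunit (-0.58, adjusted p = 0.0365), Top2a, the topoisomerase of late S phase and mitosis (-0.46, adjusted p = 0.00209), and 2810417H13Rik, a factor that binds PCNA (-0.40, adjusted p = 0.00661). All 3 were lower after scaling too, at -0.98, -0.92 and -0.86, with Tipin, the partner of Timeless, at -0.43.

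Of 24 tested further nucleotide supply genes, 16 were higher and 2 lower as deposited, with a median of 0.36, and 2 and 4 after scaling. The shares over all genes were 55% and 4.58% as deposited, and 15.4% and 14.2% after scaling. Samhd1, a dNTP-degrading enzyme, was 30.3 to 50.2 in PIR+ and 4.6 to 14.7 in PIR- libraries, a fold change of 2.12 ± 0.20 (adjusted p = 1.11e-16) and 1.70 after scaling. Dctd, which deaminates dCMP, was 1.10 (adjusted p = 3.63e-06) and 0.67 after scaling, and Nme1, a nucleoside diphosphate kinase, and Gart, of purine synthesis, were 0.67 and 0.63 as deposited. Dck, which salvages deoxycytidine, was 11.8 to 31.9 in PIR+ and 45 to 78.4 in PIR- libraries (-1.59, adjusted p = 5.89e-14, and -2.04 after scaling). Impdh1, which commits purines to guanine nucleotides, was 6.9 to 20.3 against 28.3 to 69.7 (-1.84, adjusted p = 5.18e-16, and -2.27 after scaling). These 4 genes, Samhd1, Dctd, Dck and Impdh1, were called on both scales, and Mthfd2 (-0.58) and Shmt1 (-0.48) were lower after scaling only. Impdh1 was also lower in KO than in wt among PIR+ libraries, by -0.98 (adjusted p = 0.0244) as deposited and -1.06 (adjusted p = 0.00328) after scaling. Its deposited means in PIR- libraries were 38.8 in KO and 57.0 in wt. In PIR- libraries, 0 of the 24 genes were called for KO against wt as deposited, and 1 was lower after scaling (0.661% of all genes).

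Of 28 tested S-phase control and replication-coupled chromatin genes, 9 were higher and 4 lower as deposited, with a median of 0.18, and 0 and 12 after scaling. For this list and the next, the shares over all genes were 55% and 4.58% as deposited, and 15.4% and 14.2% after scaling. E2f2, an activating E2F, was 2 to 8.5 in PIR+ and 22.3 to 34.9 in PIR- libraries (-2.39, adjusted p = 4.49e-17, and -2.78 after scaling), without overlap. E2f3, another activating E2F, was 0.65 as deposited, and the repair genes Ung, Msh6 and Exo1 were 0.83, 0.70 and 0.50. The other lower genes were Asf1b, a histone chaperone (-0.59), Hmgb2 (-0.56) and Ccna2, the cyclin A of S phase and mitosis (-0.50). Of 30 mitosis genes, all of which were tested, 0 were higher and 6 lower as deposited, and 23 were lower after scaling, with medians of -0.19 and -0.61. Nusap1 (-0.95), Plk1 (-0.57), Mki67 (-0.56) and Ccnb1 (-0.55) led as deposited. Mitosis genes made up 32.2 to 41.7 of every 10000 units in PIR+ and 50.7 to 64.7 in PIR- libraries, S-phase control genes 54.2 to 56.1 and 66.2 to 76.7, and neither overlapped. In PIR- cells Hmgb2 (-0.45, adjusted p = 0.00617) and Cenpf (-0.62, adjusted p = 0.024), a kinetochore gene, were lower in KO after scaling, and the KO effect on Hmgb2 (0.61, adjusted p = 0.0197) and on Ube2c (0.90, adjusted p = 0.0376), a mitotic ubiquitin conjugase, was more positive in PIR+ than in PIR- cells.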

How the data were processed

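RNA of 12 fetal liver libraries was counted by molecular barcode. The authors divided molecule counts by a factor per library and rounded to 1 decimal, and the deposited table holds these as a signal (normalized molecule count). Per the submitters' processing notes, TopHat2, DESeq2 and mm10 were used, with versions and counting tool not given in the sources used here. Each tube received the same amount of ERCC RNA, per the labels' protocols. In each library 91.4% to 94.2% of values under 15 lay within 0.055 of a whole multiple of 1 step (0.49 to 0.775), so whole reads were not recovered and no count model was run. The p-value columns that the authors deposited were not stated to be adjusted or not.

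The 45 genes were matched by symbol, and they and the lists beside them were chosen with earlier results of these data known. Groups follow sample titles. limma 3.58.1 (R 4.3.3, trended prior) was fitted on log2(value + 1) with 4 group means over the 12 libraries, for the 4542 of 23420 genes that reached 10 in 3 or more libraries, and p-values were adjusted by Benjamini-Hochberg over all of them, with a threshold of 0.05. The added 1 understates changes of low genes. This was repeated after median-of-ratios scaling over 7917 genes above 0 in all libraries. Of the 45, 42 were tested. Figures used matplotlib 3.10.9 with Python 3.11.15.

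Values in every library are given, in each role, for genes called on both scales, otherwise for the tested gene with the largest absolute fold change, and up to 4 called genes per direction for the other lists. Gene positions are from GENCODE M21 (GRCm38). Another gene overlaps 24 of the 45, 12 on the same strand and 19 on the other, and the strand used in counting is not given in the sources used here. Alternatives were other scalings, added constants, filters, a prior without trend, fits of the compared groups only, a replicate block, and subsets of libraries. Splits by labelled embryonic stage, and subsets after scaling, were added after seeing the data.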

Additional observations from a re-analysis of the deposited data

How the results depend on the processing

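On the deposited scale, the 12 genes higher in wild type became 0 after median-of-ratios scaling, after scaling to equal sums and without the globin-rich libraries (which leaves 2 against 1), 7 without the trended prior, 1 in the 6 libraries whose markers field has the sign of the title, 2 within E12.5, 6 within E14.5, and 2 to 14 leaving out a library. The 1 lower became 11 and 10 under these scalings, 0 without the trend, the globin-rich or the contradicting libraries or within E14.5, and 0 to 1 leaving out a library. The 7 higher in KO became 0 and 1 under the scalings, 4 with a filter of genes above 0 in at least 3 libraries or without the trend, 1 without the globin-rich libraries, 12 and 0 within E12.5 and E14.5, and 2 to 8 leaving out a library. The 0 lower in KO became 6 and 4 under the scalings, 1 with an added constant of 5, 2 within E14.5, and 0 to 2 leaving out a library. Over both genotypes, the 17 higher became 0 and 4 under the scalings, 5 without the globin-rich libraries, 9 within E14.5, and 12 to 19 leaving out a library. The 2 lower became 11 and 9 under the scalings, 0 without the globin-rich or the contradicting libraries and within E12.5, 1 within E14.5, and 2 to 3 leaving out a library. Under scaling, Mcm5 in wild type (-0.028), and Mcm2 (-0.038), Mcm3 (-0.016), Gins2 (-0.044) and Dtl (-0.0066) over both genotypes, turned negative. Counts over all genes moved as well. Over both genotypes, 2498 of all 4542 tested genes were higher as deposited, 698 after median-of-ratios scaling and 881 with equal sums. Lower were 208, 646 and 513. In wild type, 1846 higher became 524 and 673, and in KO 1023 became 369 and 440. Without the trended prior, 1615 were higher and 151 lower in wild type, and 874 were higher in KO. With genes above 0 in at least 3 libraries, 1182 of 12046 were higher in KO. With an added constant of 5, 145 were lower in KO. Counts that leave out libraries, here and below, have no share over all genes beside them. They are not read as results about these genes. Without the globin-rich libraries, the median over both genotypes was 0.41 over all genes and 0.15 over the replication genes. By construction, median-of-ratios scaling centres the median gene. For the other changes the cause was not tested. By title and source name, the 6 libraries without contradicting labels hold PIR+ only from E12.5 and PIR- only from E14.5. In that subset, PIR sign and stage cannot be told apart. Within a stage, PIR+ against PIR- is 1 library against 1 in wild type at E14.5 and in KO at E12.5, and KO against wild type has an arm of 1, as have comparisons among the 6 libraries without contradicting labels, so in these the lone library is assumed to vary like the other groups, and the counts (6, 12 and, after scaling, 5 and 0, for example) are not replicated results.

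On the median-of-ratios scale, the 11 lower in wild type became 6 without the globin-rich or contradicting libraries and 7 and 5 within E12.5 and E14.5, and were 9 to 11 leaving out a library. The 0 higher in KO became 1 without the globin-rich libraries and within E12.5, and 0 to 1 leaving out a library. The 6 lower became 1 without the contradicting libraries and 0 within E12.5, and 4 to 8 leaving out a library. The 11 lower over both genotypes became 6 without the contradicting libraries and 5 within E12.5, and 9 to 13 leaving out a library, and the 0 higher became 1 within E12.5 and 0 to 1 leaving out a library. For KO against wild type in PIR- cells, the 0 lower became 1 under either scaling, and the 1 lower after median-of-ratios scaling became 0 without the contradicting libraries and within either stage.

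With replicate number as a block, on the deposited scale, the counts higher and lower were 15 and 2 in wild type, 9 and 2 in KO and 20 and 3 over both genotypes. Of all 4542 tested genes, 2213 were then higher and 196 lower in wild type, 1523 and 161 in KO, and 2753 and 225 over both genotypes. With block and median-of-ratios scaling, the counts of replication genes were 0 and 11, 1 and 6, and 0 and 11, and 1 lower for KO in PIR- cells. Over all genes the counts were then 504 and 499, 370 and 334, and 693 and 647, and 30 lower for KO in PIR- cells. Gene by gene, same-numbered libraries of different groups deviated little together (correlations -0.106 to 0.163, of which 1 of 18 pairs was above 0.1, against 3 of 36 pairs of different number). Such correlations across genes do not see a level shared by whole libraries. Replicate 3 had the highest deposited sum in every group. Whether same-numbered libraries are paired was thus not settled. Having 3 libraries a group and 100 cells a tube limits what can be detected, and low genes such as Orc1, Gins3 and Pole2 were not tested.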
